A study of Mus musculus with 9 samples.

Results

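Type 2 dendritic cells of the mouse peritoneal cavity (PcDC2) were compared with small peritoneal macrophages (SPM), gene by gene, by RNA sequencing of sorted cells. The comparison rests on 4 of the 9 libraries of the study, 2 of PcDC2 and 2 of SPM. It covers the 10526 of 24532 genes with an FPKM (fragments scaled by transcript length and by mapped fragments, so that levels compare between genes and libraries) of at least 1 in at least 2 of the 9 libraries. The other 14006 genes were not tested. All cells came from the peritoneal lavage of C57BL/6 mice at postnatal week 8, and the labels name no treatment or engineered allele. Every group was sorted as positive for major histocompatibility complex class II (MHCII). SPM were the CD11c- CD115+ cells of that gate and PcDC2 the CD11c+ CD115- cells, a gate they share with the type 1 dendritic cells (PcDC1, 1 library). The CD11c+ CD115+ cells gave the other 2 groups, P-IV.I and P-IV.II, with 2 libraries each, which the labels call peritoneal dendritic cells and small peritoneal macrophages. The labels do not say whether the 2 libraries of a group came from separate animals or sorts, so the p-values reflect the spread among these 4 and the other libraries alone, and that spread may be technical.

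Macrophages and conventional dendritic cells are both phagocytes, and both can carry MHC class II. Small peritoneal macrophages are replenished from blood monocytes and depend on the receptor CD115, and they take up dying cells and debris and secrete complement, matrix and coagulation proteins. Conventional dendritic cells arise from bone marrow precursors that depend on the growth factor receptor FLT3. They cut antigen slowly, present it to T cells, and move to the draining lymph node through the chemokine receptor CCR7. The type 2 subset presents mainly to CD4 T cells.

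The FPKM totals of the 4 libraries lay between 450536 and 525494. A level of 1 FPKM was reached by 9382 to 9796 genes in each. The sequencing depth cannot be given, since no counts were used here and whole reads could not be recovered from the FPKM values. Pearson's r across genes was 0.95 between the SPM libraries, 0.973 between the PcDC2 libraries and 0.798 to 0.833 between libraries of different groups; genes are not independent replicates. The gate genes followed their labels, with Csf1r, which encodes CD115, at 476 and 739.8 FPKM in SPM and 5.08 and 6.86 in PcDC2, and Itgax, which encodes CD11c, at 2.29 and 2.04 and 91 and 77.7. They were used to sort the cells and are no finding. The defining markers stood the same way. Of the macrophage markers, Mertk was at 15.7 and 16 FPKM in SPM and 0 and 0 in PcDC2, and C1qb at 3747 and 2241 and 0.406 and 6.34. Of the dendritic cell markers, Flt3 was at 2.79 and 3.01 FPKM in SPM and 173 and 141 in PcDC2, Zbtb46 at 2.03 and 3.92 and 103 and 106, and Ccr7 at 2.56 and 3.81 and 119.8 and 417. In sorted bulk samples, fewer cells of a type and less RNA per cell cannot be told apart.

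Of the 10526 genes tested, 2069 (19.7%) differed between PcDC2 and SPM at an adjusted p under 0.05 in limma. There were 1178 genes higher in PcDC2 (11.2%) and 891 lower (8.46%), against 3487 genes at an unadjusted p under 0.05. All 2069 had libraries that did not overlap between the groups. With 2 libraries a group, passing the test nearly requires this, so it adds no support. The share without overlap over all genes tested is not given here. Genes that did not pass could stand apart too. Spi1, for example, did not pass, with both PcDC2 libraries above both SPM libraries. The median log2 fold change was 1.51 among the higher genes, -1.66 among the lower genes and 0.13 over all genes tested. Genes that fell reached further, with 163 lower and 143 higher by at least 3 on the log2 scale and 51 lower and 25 higher by at least 5. There were 76 genes with a mean of at least 10 FPKM in SPM that fell to a mean under 1 in PcDC2, and 53 with the opposite pattern. The split between directions depended on scaling. After median-ratio rescaling, which moved the median of all genes to -0.02, 963 genes were higher and 1089 lower. There were 1359 calls without SPM replicate 2. Leaving out PcDC2 replicate 1 gave 1265 and leaving out PcDC2 replicate 2 gave 1089.

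**Figure D1:**
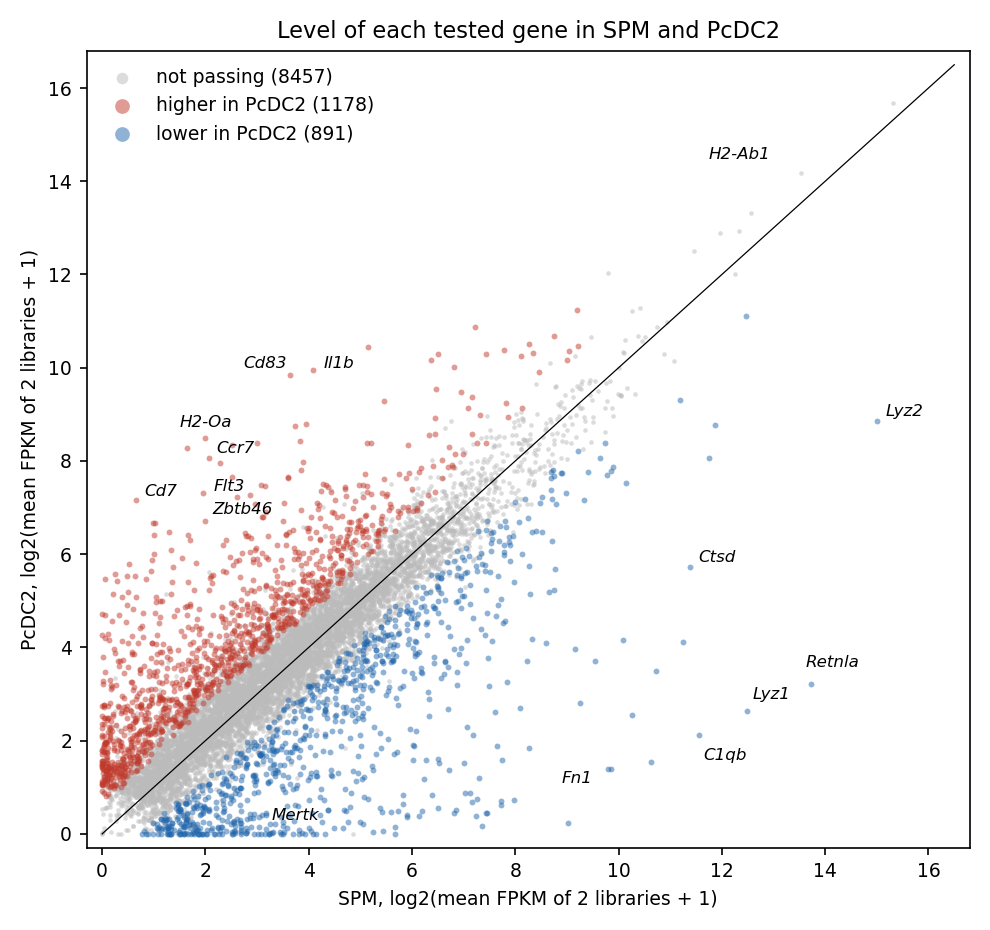
Level of each of the 10526 tested genes in SPM (horizontal axis) and PcDC2 (vertical axis), as log2 of the mean FPKM of 2 libraries plus 1. Coloured points are the 1178 genes higher and the 891 genes lower in PcDC2 at an adjusted p under 0.05, and grey points are genes that did not pass. All 2069 coloured genes have libraries that do not overlap between the groups, which passing the test nearly requires.

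Genes were grouped in lists by role, and members are given as listed, tested and called. Listed genes that were not tested did not reach 1 FPKM in 2 libraries, or stood under another name. A gene could pass the filter through the group in which it is high, so a count over tested members is a description. Changes below are PcDC2 minus SPM on the log2(FPKM + 1) scale ± SE from the fit, and a gene is said to have risen or fallen only at an adjusted p under 0.05.

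Complement genes were lower in PcDC2 than in SPM. Of 21 listed genes 11 were tested, of which 10 fell and none rose, with a median of -5.76 against 0.13 over all genes. C1qa, which encodes a chain of the C1q molecule that starts the classical pathway and binds dying cells, was at 1232 and 612 FPKM in SPM and 0.122 and 3.13 in PcDC2, and fell by 8.66 ± 0.62 (adjusted p = 7.34e-05). C1qc, another chain of C1q, fell by 9.27 ± 0.48, from 1857 and 1306 FPKM to 0.456 and 3.40. Both C1q genes were much higher in PcDC2 replicate 2 than in PcDC2 replicate 1, and still far below both SPM libraries. C5ar1, the receptor for the anaphylatoxin C5a (chromosome 7, bases 16246743 to 16259540 in GRCm38.p6), was at 170.0 and 248 FPKM in SPM and 0.427 and 0.843 in PcDC2, a change of -6.99 ± 0.37 (adjusted p = 2.07e-05). C3ar1, the receptor for C3a, fell by 5.76 ± 0.24 from 65.4 and 73.8 FPKM to 0.184 and 0.438. Cfp, which encodes properdin, the stabiliser of the alternative pathway, and was chosen after its values were seen, fell by 1.88 ± 0.26 and kept 649.6 and 619 FPKM in PcDC2 against 2345 and 2323 in SPM.

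Genes for the uptake of dying cells fell more often than they rose. Of 21 listed genes 17 were tested, with 9 lower, 3 higher and 5 not passing, and a median of -0.90. Axl, a receptor tyrosine kinase for cells coated with GAS6, was at 64 and 201 FPKM in SPM and 3.68 and 4.12 in PcDC2 and fell by 4.55 ± 0.71 (adjusted p = 0.00309). Its ligand Gas6 fell by 2.64 ± 0.27 from 4.49 and 7.32 FPKM to 0.183 and 0. Not every receptor for the exposed phosphatidylserine of dying cells followed. Havcr2, which encodes TIM-3, rose by 3.67 ± 0.22 from 0.659 and 0.774 FPKM to 19.7 and 22.1 (adjusted p = 3.42e-05), while Timd4 did not pass, at 22 and 23.1 FPKM in SPM and 18.7 and 23.2 in PcDC2. The count of higher members was 1 or 2 when any 1 of the 4 libraries was left out.

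Scavenger and endocytic receptors were more often lower than higher in PcDC2. Of 16 listed 12 were tested, with 7 lower, 1 higher and 4 not passing, and a median of -2.37. Cd36, a receptor for oxidised lipoprotein and fatty acids, was at 226 and 391 FPKM in SPM and 3.75 and 1.40 in PcDC2 and fell by 6.46 ± 0.45 (adjusted p = 7.15e-05). Msr1, scavenger receptor A, fell by 5.53 ± 0.33 from 45.1 and 72.3 FPKM to 0.0269 and 0.541. Folr2, folate receptor beta, fell by 6.34 ± 0.28 from 137 and 86.7 to 0.330 and 0.391. For these receptors every PcDC2 library lay below 5 FPKM and every SPM library above 40. Mrc1, the mannose receptor, fell by 2.91 ± 0.26 and stayed at 16.1 and 17.5 FPKM in PcDC2 against 122 and 146 in SPM. Lyve1, a hyaluronan receptor, fell by 3.86 ± 0.23 from 17.2 and 22.5 FPKM to 0.333 and 0.511.

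Genes of alternative activation, with the lysozymes, fell more often than they rose. Of 16 listed 15 were tested, with 10 lower, 2 higher and 3 not passing, and a median of -2.91. Lyz2, lysozyme 2, was at 39816 and 26288 FPKM in SPM and 358 and 566 in PcDC2 and fell by 6.16 ± 0.38 (adjusted p = 3.56e-05). Lyz1, its close paralog, fell by 9.79 ± 0.35 from 7496 and 3999.7 FPKM to 5.91 and 4.53; reads may be split between these paralogs, so each value is uncertain. Retnla, a secreted protein of alternatively activated macrophages, was at 19199.5 and 7951 FPKM in SPM and 4.29 and 12.3 in PcDC2. Hmox1, which degrades heme, fell by 5.43 ± 0.34 from 162 and 91.4 FPKM to 1.65 and 2.06. In each of these 4 genes the lowest SPM library was far above the highest PcDC2 library.

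The promoters of Retnla and Lyz1 are shown because these genes were abundant in SPM and because letters of the C/EBP type were found more often in the promoters of genes that fell, as given further on. Both were chosen after their values were seen. Each line gives the 250 bases before the start of the gene in RefSeq on GRCm38.p6, 5′ to 3′ on the strand of the gene, at chr16:48842359-48842608 on the plus strand for Retnla and chr10:117292869-117293118 on the minus strand for Lyz1. Capitals mark the letters TTGCNNAA on the printed strand of Retnla, beginning 134 bases before the start, and their reverse complement in Lyz1, which carries the letters on the opposite strand, beginning 209 bases before the start.
Retnla: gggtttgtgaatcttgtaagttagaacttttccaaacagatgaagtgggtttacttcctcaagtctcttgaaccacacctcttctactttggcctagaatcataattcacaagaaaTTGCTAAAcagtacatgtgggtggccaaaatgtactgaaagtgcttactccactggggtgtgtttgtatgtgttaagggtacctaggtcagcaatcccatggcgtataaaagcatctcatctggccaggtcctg
Lyz1: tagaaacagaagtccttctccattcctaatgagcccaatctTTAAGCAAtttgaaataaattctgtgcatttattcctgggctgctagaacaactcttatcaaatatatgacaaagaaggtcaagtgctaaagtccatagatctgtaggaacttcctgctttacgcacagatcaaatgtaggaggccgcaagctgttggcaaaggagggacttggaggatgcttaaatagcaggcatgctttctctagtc
A match describes letters in this window, and no binding was measured.

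Coagulation and matrix genes were more often lower than higher in PcDC2. Of 31 listed 22 were tested, with 13 lower, 2 higher and 7 not passing, and a median of -2.59. F13a1, the A chain of coagulation factor XIII, was at 425 and 607 FPKM in SPM and 0.349 and 0 in PcDC2 and fell by 8.77 ± 0.48 (adjusted p = 2.21e-05). Fn1, fibronectin, fell by 8.37 ± 0.56 from 1119.8 and 648 FPKM to 1.04 and 2.24. Ecm1, a secreted extracellular matrix protein, fell by 7.32 ± 0.51 from 1309 and 2058 FPKM to 5.61 and 14.9. All 3 secreted proteins were above 400 FPKM in both SPM libraries and below 15 in both PcDC2 libraries. The gelatinase Mmp9 and its class of inhibitor Timp2 fell together. Mmp9 fell by 6.10 ± 0.29 and Timp2 fell by 5.43 ± 0.30. Adam23, a membrane protein of the disintegrin family, ran the other way, from 0.0578 and 0.0147 FPKM in SPM to 27.7 and 22 in PcDC2, a rise of 4.63 ± 0.23 (adjusted p = 1.88e-05).

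Lipid genes fell more often than they rose. Of 24 listed 20 were tested, with 11 lower, 2 higher and 7 not passing, and a median of -1.63. Apoe, which carries cholesterol out of macrophages, was at 3110.0 and 1746 FPKM in SPM and 2.38 and 30.5 in PcDC2 and fell by 7.82 ± 0.88 (adjusted p = 5.38e-04). As with C1qa and C1qc, PcDC2 replicate 2 was above PcDC2 replicate 1. Lpl, lipoprotein lipase, fell by 5.76 ± 0.26 from 226 and 172 FPKM to 2.12 and 3.26. Pltp, which transfers phospholipid between lipoproteins, fell by 3.08 ± 0.31 and kept 422 and 449 FPKM in PcDC2 against 4400.2 and 3093 in SPM. Trem2, a lipid-sensing receptor, fell by 3.35 ± 0.30 from 12.9 and 6.97 FPKM to 0 and 0.0695.

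Among lysosomal genes the fall was partial. Of 35 listed 32 were tested, with 14 lower, 2 higher and 16 not passing, and a median of -0.93; the lower count was 8 without PcDC2 replicate 2. Ctsd, the aspartic protease cathepsin D, was at 2602 and 2749 FPKM in SPM and 47.3 and 56.2 in PcDC2 and fell by 5.67 ± 0.31 (adjusted p = 2.33e-05). Lamp1, the main lysosomal membrane protein, fell by 2.61 ± 0.26 from 999.9 and 1253 FPKM to 165 and 202. Ctsl, cathepsin L, fell by 2.84 ± 0.35 from 38.7 and 23 FPKM to 2.94 and 3.72. Among these 3 genes cathepsin D had the widest gap between the groups. Ctss, cathepsin S, which trims the MHC class II invariant chain, did not pass, at 2172 and 1611 FPKM in SPM and 1188 and 1325 in PcDC2. Ctsz, cathepsin Z, did not pass either, at 1006 and 879 FPKM in SPM and 559 and 559 in PcDC2.

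Iron and eicosanoid genes changed in both directions. Of 16 listed iron and heme genes 14 were tested, with 6 lower, 1 higher and 7 not passing. Slc11a1, which encodes the phagosomal metal transporter NRAMP1, was at 172 and 249 FPKM in SPM and 0.520 and 0.553 in PcDC2 and fell by 7.08 ± 0.29 (adjusted p = 1.29e-05). Steap3, an endosomal ferrireductase, fell by 5.27 ± 0.38, while Tfrc, the transferrin receptor, rose by 1.44 ± 0.22 to 4.99 and 6.26 FPKM in PcDC2. Of 25 listed eicosanoid genes 20 were tested, with 9 lower, 4 higher and 7 not passing, and a median of -0.84. The cyclooxygenases went opposite ways. Ptgs1, the constitutive cyclooxygenase 1, fell by 6.96 ± 0.43 from 146 and 197 FPKM to 0.366 and 0.379 (adjusted p = 3.94e-05). Ptgs2, the inducible cyclooxygenase 2, rose by 5.79 ± 1.04 from 1.96 and 0 FPKM to 63.8 and 139 (adjusted p = 0.00606, and 0.0528 without PcDC2 replicate 2). Ptger4, the EP4 receptor for prostaglandin E2, rose by 5.16 ± 0.48 from 6.02 and 3.46 FPKM to 178 and 224. Ltc4s, which makes leukotriene C4, fell by 6.82 ± 0.32 and Pla2g7, which degrades platelet-activating factor, fell by 7.27 ± 0.31. Alox5ap, the partner protein of 5-lipoxygenase, did not pass, at 373 and 189 FPKM in SPM and 210.1 and 234 in PcDC2.

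Macrophage transcription factors fell more often than they rose. Of 21 listed 17 were tested, with 7 lower, 3 higher and 7 not passing, and a median of -0.67. Cebpb, a factor of monocytes and macrophages (chromosome 2, bases 167688915 to 167690432 in GRCm38.p6), was at 299 and 158 FPKM in SPM and 9.44 and 7.67 in PcDC2 and fell by 4.52 ± 0.38 (adjusted p = 1.50e-04). Maf fell by 2.25 ± 0.32 and Pparg, a lipid-sensing nuclear receptor, fell by 2.15 ± 0.27. Spi1, which encodes PU.1 and serves both lineages, did not pass, at 390.4 and 289.9 FPKM in SPM and 510.2 and 512 in PcDC2.

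Fc receptors, sensors and lectins did not move as blocks. Of 12 listed Fc receptor genes 10 were tested, with 4 lower, 2 higher and 4 not passing. Fcgr3, an activating receptor for immunoglobulin G, fell by 5.92 ± 0.24 from 1206 and 977 FPKM to 17.4 and 16.4 (adjusted p = 1.29e-05), and Fcgr4, another activating receptor, fell by 3.96 ± 0.41. Fcgr2b, the inhibitory receptor, did not pass, at 480.0 and 352 FPKM in SPM and 289 and 275 in PcDC2. Of 28 listed Toll-like receptor and sensing genes 26 were tested, with 7 lower, 5 higher and 14 not passing, and a median of -0.01; the higher count was 0 or 1 when any 1 of the 4 libraries was left out. Tlr8, a sensor of single-stranded RNA, fell by 3.85 ± 0.29 from 18.4 and 16.9 FPKM to 0.572 and 0.0611. Tlr4, the lipopolysaccharide receptor, fell by 2.49 ± 0.24 from 16.3 and 20.4 FPKM to 2.47 and 2.41, and its coreceptor Cd14 fell by 3.51 ± 0.48 from 499 and 359 to 31.5 and 41.4. Of 34 listed C-type lectins 27 were tested, with 8 lower and 7 higher; the higher count was 4 without SPM replicate 2 or PcDC2 replicate 2. Cd209a, a dendritic cell lectin of the DC-SIGN family, rose by 2.25 ± 0.24 from 285 and 326 FPKM to 1408 and 1502, whereas its paralog Cd209f was at 14 and 19.4 FPKM in SPM and listed at 0 in both PcDC2 libraries. Reads may be split among the Cd209 paralogs. Clec4e, which encodes the glycolipid receptor Mincle, fell by 3.44 ± 0.56 from 14.2 and 10.2 FPKM to 0.0457 and 0.372.

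Dendritic cell transcription factors were more often higher than lower in PcDC2. Of 26 listed 25 were tested, with 12 higher, 1 lower and 12 not passing, and a median of 1.61 against 0.13 over all genes. Bcl11a, a zinc finger factor of dendritic and B cells, was at 2.03 and 1.10 FPKM in SPM and 49.6 and 32.4 in PcDC2 and rose by 4.03 ± 0.38 (adjusted p = 2.32e-04). Mycl, the MYC family member of dendritic cells, rose by 3.76 ± 0.27 from 0.131 and 0.486 FPKM to 17.7 and 15.6. Spib, an ETS factor related to PU.1, rose by 3.96 ± 0.71 from 1.09 and 0.379 FPKM to 29.5 and 21.8. Bhlhe40 rose by 3.06 ± 0.42 from 76.8 and 98.4 FPKM to 603 and 893, so both groups held it at a high level. Irf4, a factor of type 2 dendritic cells that was chosen after its values were seen, did not pass, at 17.6 and 12.8 FPKM in SPM and 17 and 18.6 in PcDC2.

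Growth factor receptors and surface proteins of dendritic cells were more often higher than lower in PcDC2. Of 21 listed 20 were tested, with 14 higher, none lower and 6 not passing, and a median of 3.42. The 14 include Itgax, which was fixed by the gate, and the marker Flt3. Kit, the receptor for stem cell factor, was at 0 and 0.427 FPKM in SPM and 43.5 and 40.4 in PcDC2 and rose by 5.17 ± 0.26 (adjusted p = 2.07e-05). Cd7, an immunoglobulin family protein also known from T and NK cells (chromosome 11, bases 121036747 to 121039478 in GRCm38.p6), rose by 6.50 ± 0.30 from 0.784 and 0.369 FPKM to 159.6 and 123 (adjusted p = 1.81e-05). P2ry10, a receptor for lysophospholipids, rose by 5.11 ± 0.38 from 1.01 and 1.90 FPKM to 57.2 and 119. For each of them both SPM libraries were below 2 FPKM and both PcDC2 libraries above 40.

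Markers of T and NK cells rose beside Cd7. Of 8 listed T cell markers 5 were tested and all 5 rose, at low levels. Their summed level over the 8 genes was 5.77 to 8.51 FPKM in SPM and 19.9 to 28.2 in PcDC2, and the count was 1 without SPM replicate 2, and 2 or 0 when PcDC2 replicate 1 or PcDC2 replicate 2 was left out. Cd3e, a chain of the T cell receptor complex, was at 2.89 and 1.48 FPKM in SPM and 6.53 and 6.72 in PcDC2. None of the 8 was at 0 in both libraries of a group. Of 8 listed NK cell markers 3 were tested and all 3 rose, 1 of them when PcDC2 replicate 2 was left out, and the sum went from 11.9 to 15.1 FPKM in SPM to 101 to 170 in PcDC2. Most of that sum was Klrd1, which encodes the CD94 chain of NK receptors, at 1.52 and 0.567 FPKM in SPM and 68.4 and 133 in PcDC2, a rise of 5.60 ± 0.60 (adjusted p = 4.41e-04). The defining NK gene Ncr1, chosen after its values were seen, was listed at 0 in both PcDC2 libraries. Of 9 listed B cell markers 7 were tested, with 1 higher, 1 lower and 5 not passing, and sums of 47.6 to 49.6 FPKM in SPM and 31.0 to 49.6 in PcDC2. Cd79a, the antigen receptor chain, did not pass, at 14.4 and 9.70 FPKM in SPM and 7.73 and 1.41 in PcDC2. Of 12 listed plasmacytoid dendritic cell markers 9 were tested, with 4 higher, none lower and sums of 66.1 to 137 FPKM in SPM and 129 to 143 in PcDC2. Markers of mast cells, neutrophils, eosinophils and mesothelial cells summed to 2.42 FPKM or less in each of the 4 libraries. The part of lymphoid cells in the levels of Cd7 and Klrd1 was not tested.

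Markers of the dendritic cell subsets were then compared. Of 20 listed type 2 markers 17 were tested, with 9 higher, 3 lower and 5 not passing, and a median of 1.18; the lower count was 1 without PcDC2 replicate 1. Cd4, the T cell coreceptor that some type 2 dendritic cells carry, rose by 2.99 ± 0.33 from 0.185 and 0.514 FPKM to 12.6 and 7.34. Mgl2 and Sirpa, which are used to mark type 2 dendritic cells, did not pass. Mgl2, a galactose-binding lectin, was at 304 and 225 FPKM in SPM and 328 and 339 in PcDC2. Sirpa, the receptor for CD47, was at 160.0 and 149 FPKM in SPM and 172 and 161 in PcDC2. SPM thus carried both transcripts at levels close to those of PcDC2. Cd1d1, which presents lipids to NKT cells, fell by 2.22 ± 0.30. Of 20 listed type 1 markers 19 were tested, with 6 higher, 2 lower and 11 not passing, and the higher count was 3 or 4 when any 1 of the 4 libraries was left out. Cxcr3 rose at a low level, from 0.770 and 0.979 FPKM in SPM to 6.98 and 4.70 in PcDC2, against 225 in the PcDC1 library. Clec9a rose from 1.01 and 0.814 FPKM to 3.32 and 3.61, against 68.7 in PcDC1. Rab7b fell from 41.3 and 39.9 FPKM to 4.32 and 2.68, against 162 in PcDC1. Batf3, a factor of type 1 dendritic cells, did not pass, at 81.7 and 38.8 FPKM in SPM and 35.3 and 39.9 in PcDC2.

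Genes that mark dendritic cells on the way to the lymph node were more often higher than lower in PcDC2. Of 26 listed 24 were tested, with 17 higher, 2 lower and 5 not passing, and a median of 2.34. Cd83, which stabilises MHC class II at the surface of mature dendritic cells, was at 10.8 and 12 FPKM in SPM and 531 and 1309 in PcDC2 and rose by 6.08 ± 0.91 (adjusted p = 0.00249). The PcDC2 libraries differed from each other by more than 2 times, and both were more than 40 times the higher SPM library. Ccl22, a chemokine for CCR4-bearing T cells, rose by 5.30 ± 0.51 from 0 and 0.0678 FPKM to 26 and 60.2 (adjusted p = 2.55e-04). Fscn1, the actin-bundling protein fascin of mature dendritic cells, rose by 4.88 ± 0.50 from 0.0905 and 0.236 FPKM to 43.6 and 25.4. Il4i1, an enzyme that oxidises phenylalanine, rose by 5.11 ± 0.39 from 0.794 and 0 FPKM to 42.1 and 48.5, and Tbc1d4, a regulator of vesicle traffic, rose by 4.83 ± 0.42.

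**Figure D2:**
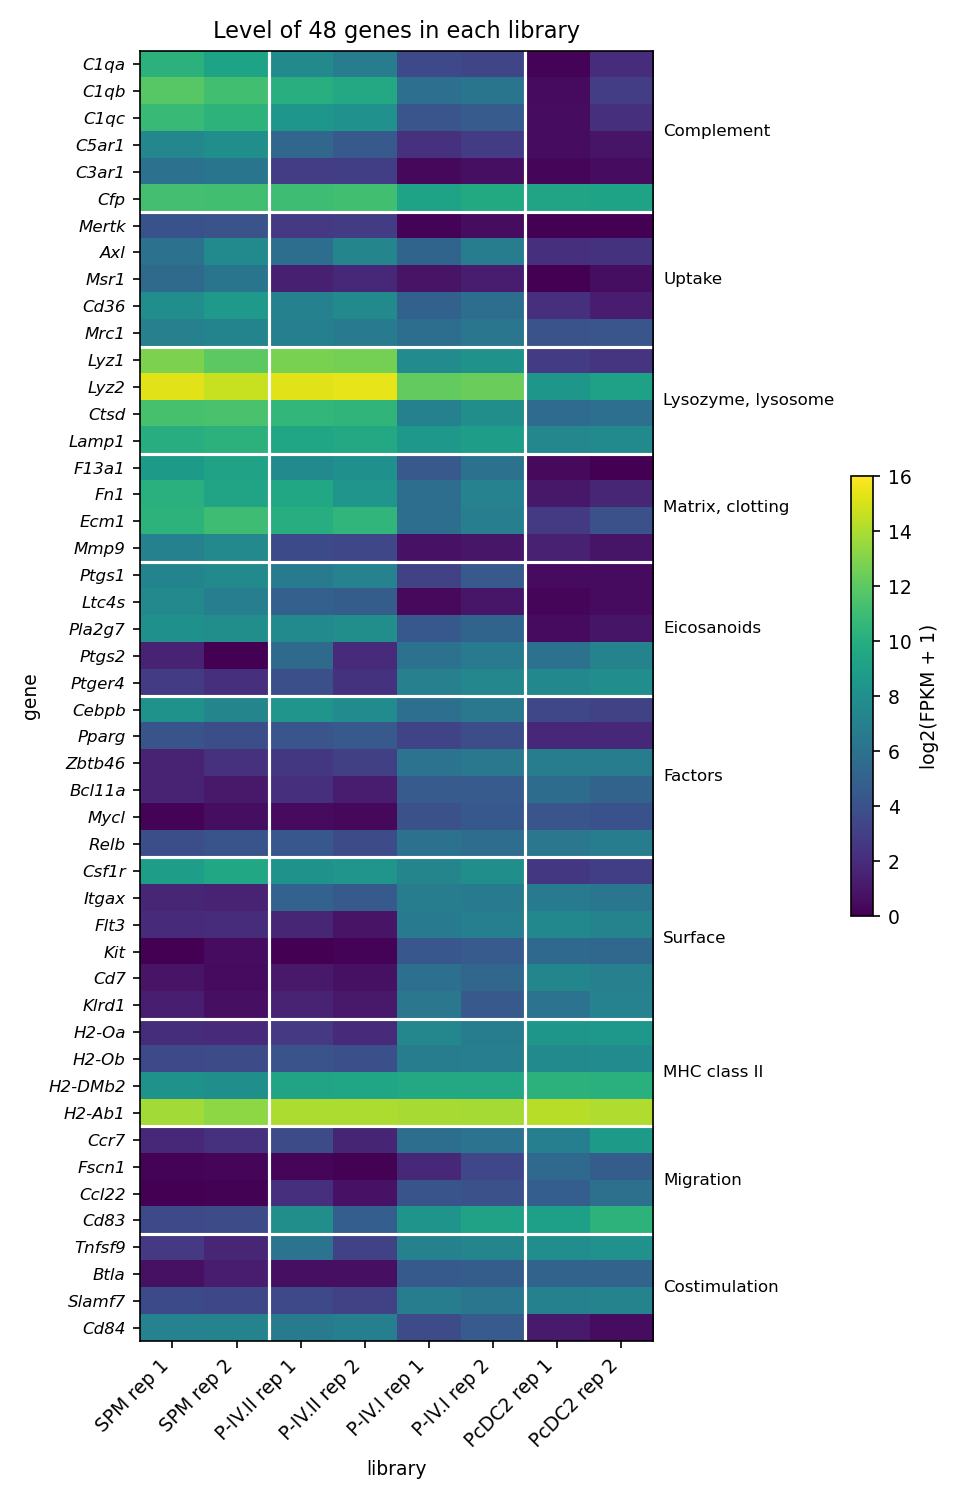
Level of 48 genes (rows) in each of the 8 replicated libraries (columns, in the order SPM, P-IV.II, P-IV.I, PcDC2) on the log2(FPKM + 1) scale. C3ar1, F13a1 and Ptgs1 are high in both SPM libraries and near 0 in both PcDC2 libraries, Kit and Cd7 show the opposite, and for C1qc the P-IV libraries lie between SPM and PcDC2.

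The MHC class II list differed within itself. Of 19 listed genes 18 were tested, with 6 higher, 1 lower and 11 not passing, and a median of 0.73; the higher count was 10 under quantile normalization. The structural genes H2-Aa, H2-Ab1, H2-Eb1 and Cd74, the products of which formed part of the sort gate or bind it, did not pass. H2-Ab1 was at 13821 and 9889 FPKM in SPM and 19644 and 17489 in PcDC2. The genes of H2-O, the inhibitor of the peptide exchanger H2-DM, were far apart. H2-Oa was at 3.30 and 2.68 FPKM in SPM and 347 and 368 in PcDC2 and rose by 6.50 ± 0.32 (adjusted p = 1.88e-05), the largest rise of the list. H2-Ob, the other chain, rose by 4.07 ± 0.21 from 10.6 and 11.5 FPKM to 195 and 208. H2-DMb2, a chain of H2-DM itself, rose by 2.14 ± 0.24 from 293 and 255 FPKM to 1263 and 1157. Ciita, the transactivator of class II genes, rose by 1.75 ± 0.23 from 42.5 and 46.3 FPKM to 142 and 161 (adjusted p = 0.00129). Of 23 listed and tested MHC class I genes 1 rose and 22 did not pass, and none rose without SPM replicate 1 or PcDC2 replicate 1. B2m, the shared light chain, was at 2525 and 923 FPKM in SPM and 1401 and 2329 in PcDC2, with overlapping libraries.

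Costimulatory genes were more often higher than lower in PcDC2. Of 34 listed 27 were tested, with 15 higher, 3 lower and 9 not passing, and a median of 1.08. Tnfsf9, the ligand of the T cell receptor 4-1BB, was at 5.38 and 2.36 FPKM in SPM and 226 and 271 in PcDC2 and rose by 5.75 ± 0.81 (adjusted p = 0.00186). Btla, an inhibitory receptor for HVEM, rose by 4.06 ± 0.26 from 0.662 and 1.47 FPKM to 32.5 and 33.1. The SLAM family split. Slamf7 rose by 3.57 ± 0.27 from 11.1 and 9.89 FPKM to 131 and 139, while Cd84 fell by 6.29 ± 0.34 from 134 and 143 to 1.21 and 0.439 (adjusted p = 2.07e-05).

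Tetraspanins and integrins changed by member as well. Of 32 listed adhesion genes 25 were tested, with 9 higher, 3 lower and 13 not passing. The 9 include Itgax, which was fixed by the gate. Cd81 and Cd9 are tetraspanins of the same family. Cd81 fell by 5.20 ± 0.28 from 508 and 635 FPKM to 16 and 13.1, and Cd9 rose by 3.13 ± 0.30 from 20.6 and 15.1 FPKM to 152 and 173. Itgb7, the beta 7 chain of gut-homing integrins, rose by 2.55 ± 0.27 from 97.7 and 147 FPKM to 659 and 757. Of 24 listed and tested actin and motility genes 6 rose and 1 fell, and the higher count was 2 without PcDC2 replicate 2 and 3 without PcDC2 replicate 1.

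Chemokine systems changed on both sides. Of 30 listed receptors 20 were tested, with 6 higher, 6 lower and 8 not passing; the higher count was 3 without PcDC2 replicate 1. Ccr2, the receptor by which monocytes leave the bone marrow, was at 798 and 1059 FPKM in SPM and 205 and 234 in PcDC2 and fell by 2.06 ± 0.27. Ccr1 fell by 3.40 ± 0.25 from 136 and 124 FPKM to 9.47 and 13.9. Gpr183, the oxysterol receptor that positions dendritic cells in the spleen, rose by 3.29 ± 0.30 from 3.91 and 4.23 FPKM to 52.4 and 45. Ccr2 thus remained above 200 FPKM in both PcDC2 libraries. Of 34 listed ligands 21 were tested, with 5 higher, 6 lower and 10 not passing; the higher count was 2 without PcDC2 replicate 2. Ccl24, a ligand of the eosinophil receptor CCR3, fell by 5.01 ± 0.39 from 66.8 and 28.1 FPKM to 0.217 and 0.561, and Ccl6 fell by 3.67 ± 0.32 from 4126 and 2734 to 226 and 305.

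Immediate-early genes, the fast and short-lived transcripts that also appear while cells are handled, were more often higher than lower in PcDC2, and their count depended on single libraries. All 29 listed were tested, with 21 higher, none lower and 8 not passing, and a median of 2.64. After median-ratio rescaling 17 were higher and 1 lower. Leaving out SPM replicate 1 gave a higher count of 22 and leaving out SPM replicate 2 a count of 4. Leaving out PcDC2 replicate 1 gave 4 and leaving out PcDC2 replicate 2 gave 8. The SPM libraries were unlike each other, with a summed level over the list of 6504 FPKM in SPM replicate 1 and 1732 in SPM replicate 2, against 22740 and 17810 in PcDC2. Nr4a1, an orphan nuclear receptor, was at 52.8 and 16.4 FPKM in SPM and 1702 and 1097 in PcDC2 and rose by 5.48 ± 0.92 (adjusted p = 0.00428). Fos, a subunit of AP-1, did not pass, at 731 and 85.7 FPKM in SPM and 1173 and 1011 in PcDC2. Zfp36, which promotes decay of cytokine messages, did not pass, at 1571 and 201 FPKM in SPM and 4997 and 3395 in PcDC2. The part of sorting or handling in these levels was not tested.

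**Figure D3:**
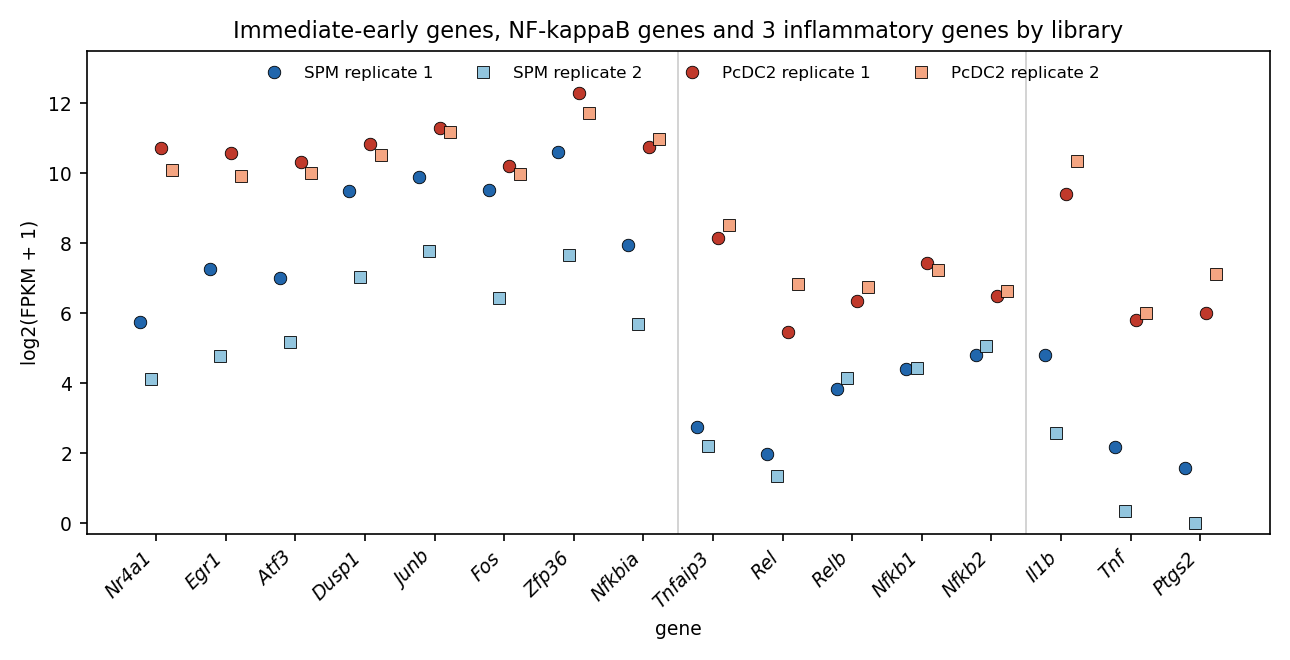
Level of immediate-early, NF-kappaB and inflammatory genes in each SPM and PcDC2 library as log2(FPKM + 1), with 1 point per library. For Nr4a1, Egr1, Nfkbia, Il1b and Tnf SPM replicate 2 lies below SPM replicate 1, and both lie below the PcDC2 libraries.

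NF-kappaB genes, too, were more often higher than lower. All 21 listed were tested, with 16 higher, 1 lower and 4 not passing, and a median of 1.46. The higher count was 12 after median-ratio rescaling, 10 without SPM replicate 2 and also without PcDC2 replicate 1, and 6 with PcDC2 replicate 2 left out. Tnfaip3, which encodes the inhibitor A20, was at 5.78 and 3.66 FPKM in SPM and 280.4 and 365 in PcDC2 and rose by 5.84 ± 0.69 (adjusted p = 7.14e-04). Rel, the subunit c-REL, rose by 4.49 ± 0.71 from 2.92 and 1.56 FPKM to 43.5 and 113. Nfkbia, the inhibitor that holds NF-kappaB in the cytoplasm, rose by 4.05 ± 0.93 from 245 and 50.3 FPKM to 1733 and 2004 (adjusted p = 0.0181, and 0.0653 with no filter on low values, 0.0956 without SPM replicate 2, 0.0775 without PcDC2 replicate 1, 0.102 without PcDC2 replicate 2). Tnfaip3 and Rel stood apart between groups in every library, and the SPM libraries were close for both, unlike Nfkbia. Ikbke, an I-kappaB kinase, ran the other way and fell by 3.91 ± 0.36 from 21.2 and 33.6 FPKM to 0.783 and 0.901.

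The promoters of Nfkbia and Rel are printed because both genes feed back on the pathway and both hold letters of the kappaB type. They too were chosen after their values were seen. Each is the 250 bases before the start in RefSeq on GRCm38.p6, on the strand of the gene, at chr12:55492648-55492897 on the minus strand for Nfkbia and chr11:23770970-23771219 on the minus strand for Rel. Capitals mark GGNNTTTCC on either strand, beginning 178 and 29 bases before the start of Nfkbia and 91 bases before that of Rel.
Nfkbia: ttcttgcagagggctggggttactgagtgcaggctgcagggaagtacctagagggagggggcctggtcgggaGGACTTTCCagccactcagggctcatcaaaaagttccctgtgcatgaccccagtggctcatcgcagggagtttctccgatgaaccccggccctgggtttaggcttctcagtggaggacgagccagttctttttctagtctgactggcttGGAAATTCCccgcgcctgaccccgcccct
Rel: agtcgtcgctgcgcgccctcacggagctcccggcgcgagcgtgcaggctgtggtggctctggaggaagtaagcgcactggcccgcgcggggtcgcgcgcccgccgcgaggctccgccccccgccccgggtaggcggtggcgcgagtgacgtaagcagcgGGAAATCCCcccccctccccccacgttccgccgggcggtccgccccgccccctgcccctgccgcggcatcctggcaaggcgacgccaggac
Of the 16 NF-kappaB members that rose, 11 have a single RefSeq promoter in the table used. Of these 11, 5 hold the letters within 250 bases before and 50 after the start. The share was 6.25% over all tested genes with a single promoter and 5.98% over the higher genes among them. The list was written with earlier results of these data known, and the share among its members that did not rise is not given here. The letters are thus not tied to the rise. No test was made on these shares, and no binding was measured.

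Cytokine genes changed in both directions. Of 40 listed cytokines and growth factors 26 were tested, with 6 higher, 7 lower and 13 not passing, and the higher count was 2 without SPM replicate 2 or PcDC2 replicate 2 and 3 without PcDC2 replicate 1. Il1b, the pyrogenic cytokine interleukin-1 beta, was at 27 and 4.94 FPKM in SPM and 674 and 1302 in PcDC2 and rose by 6.18 ± 1.21 (adjusted p = 0.00879, and 0.0544 without SPM replicate 2, 0.0689 without PcDC2 replicate 2). Tnf was at 3.56 and 0.281 FPKM in SPM and 55 and 63.4 in PcDC2 and rose by 4.64 ± 1.03 (adjusted p = 0.0152, and 0.0584 with no filter on low values, 0.0888 without SPM replicate 2, 0.0699 without PcDC2 replicate 1, 0.0898 without PcDC2 replicate 2). In both genes SPM replicate 2 was the lowest library. P-IV.II was at 550 and 31.6 FPKM for Il1b and 46.1 and 3.60 for Tnf, and P-IV.I at 690 and 503 and at 72.0 and 29.8. For both genes P-IV.II replicate 1 thus lay far nearer to PcDC2 than the SPM libraries did. A pair of other ligands of the TNF family fell. Tnfsf12, which encodes TWEAK, fell by 3.81 ± 0.31 from 39.4 and 25.4 FPKM to 1.62 and 1.07, and Tnfsf13, which encodes the B cell factor APRIL, fell by 3.34 ± 0.48 from 15.5 and 6.36 to 0.140 and 0.0389. Of 37 listed cytokine receptors 35 were tested, with 10 higher, 4 lower and 21 not passing; the lower count was 2 without PcDC2 replicate 1. The 4 lower include Csf1r, which was fixed by the gate, and the 10 higher include the marker Flt3. Il1r2, the decoy receptor for interleukin-1, rose by 5.05 ± 0.93 from 0.509 and 1.52 FPKM to 29 and 138. Il21r, the interleukin-21 receptor, rose by 3.19 ± 0.25 from 7.84 and 8.68 FPKM to 82 and 84.8.

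Genes of glucose handling changed in both directions. Of 27 listed glycolysis genes 26 were tested, with 3 higher, 7 lower and 16 not passing, and a median of -0.51; the lower count was 3 without PcDC2 replicate 1 and 3 without PcDC2 replicate 2. Slc2a3, the glucose transporter GLUT3, was at 0.697 and 0.428 FPKM in SPM and 44.7 and 46.2 in PcDC2 and rose by 4.90 ± 0.24 (adjusted p = 1.88e-05). Hk3, a myeloid hexokinase, fell by 5.11 ± 0.54 from 52.3 and 95.7 FPKM to 2.16 and 0.359. Slc16a3, which exports lactate, fell by 3.06 ± 0.39 from 85.7 and 113 FPKM to 16.6 and 7.07. Gapdh, a central enzyme of the pathway, did not pass, at 460.5 and 245 FPKM in SPM and 225 and 230.4 in PcDC2. Of 37 listed and tested oxidative phosphorylation genes none rose and none fell, with a median of -0.16.

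Further lists differed in the share of members called. Of 20 listed and tested cholesterol synthesis genes 1 rose, of 29 cell cycle genes 3 rose and of 26 interferon-stimulated genes 3 rose and 5 fell. The cholesterol count was 0 without PcDC2 replicate 1 or PcDC2 replicate 2 and 2 without SPM replicate 2. For the cell cycle list the count was 0 without PcDC2 replicate 1 and 1 without SPM replicate 2 or PcDC2 replicate 2. For cholesterol synthesis and the cell cycle the share called lay below the 19.7% of all genes. For the interferon-stimulated list and each list that follows in this paragraph, the share of tested members called in either direction lay above it. Of 21 survival and apoptosis genes 5 rose and 2 fell, and none rose without SPM replicate 2 or without PcDC2 replicate 2. Retinoid genes make, bind and clear retinoic acid. Of 17 listed 9 were tested and 3 fell. Dhrs3, which reduces retinaldehyde, fell by 3.26 ± 0.25 from 222 and 225 FPKM to 19.8 and 25.4. The count was 1 without SPM replicate 1 and 2 with any other of the 4 libraries left out. Of 19 listed purinergic genes 15 were tested, with 2 higher and 5 lower, and the lower count was 1 without PcDC2 replicate 2 and 2 without SPM replicate 2 or PcDC2 replicate 1. Of 20 genes listed for large peritoneal macrophages, the resident embryo-derived population, 14 were tested and 6 fell. The sums of that list were 273 FPKM in each SPM library and 56.1 and 80.1 in PcDC2, and Gata6, its defining factor, chosen after its values were seen, was at 0 and 0.149 FPKM in SPM and 0.228 and 0.125 in PcDC2. Of 22 listed monocyte-associated genes 18 were tested, with 6 lower, 3 higher and 9 not passing.

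Guidance and Notch genes were few. Of 18 listed semaphorin and guidance genes 12 were tested, with 2 higher, 1 lower and 9 not passing. Over all genes 19.7% were called, and with so few members no change of either list is read from these counts. Sema4d, a semaphorin of lymphocytes and myeloid cells, rose by 2.80 ± 0.26 from 15.1 and 19.1 FPKM to 132 and 116, and Plxnc1, the receptor of semaphorin 7A, rose by 2.55 ± 0.23 from 3.67 and 4.30 FPKM to 29 and 27.4. Plxna1, another plexin, fell by 2.36 ± 0.38 from 14 and 8.21 FPKM to 1.77 and 0.907. Of 15 listed Notch genes 7 were tested, with 1 lower and 6 not passing. Adam10, the protease that cuts Notch receptors at the surface, fell by 2.07 ± 0.31 from 102 and 142 FPKM to 29.4 and 26.4. Rbpj, the DNA-binding partner of Notch, did not pass, at 81 and 82.1 FPKM in SPM and 64.2 and 47.9 in PcDC2.

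Small counts in the minor direction of a list changed when a library was left out. The 1 higher scavenger gene and the 2 higher lipid genes came to 0 without PcDC2 replicate 2. The 2 higher lysosomal genes came to 1 without SPM replicate 1, SPM replicate 2 or PcDC2 replicate 2, and the 2 higher genes of alternative activation to 1 without SPM replicate 2 or PcDC2 replicate 1. The 5 lower interferon-stimulated genes came to 2 without PcDC2 replicate 1, and the 3 higher ones to 1 without SPM replicate 2 or PcDC2 replicate 2.

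**Figure D4:**
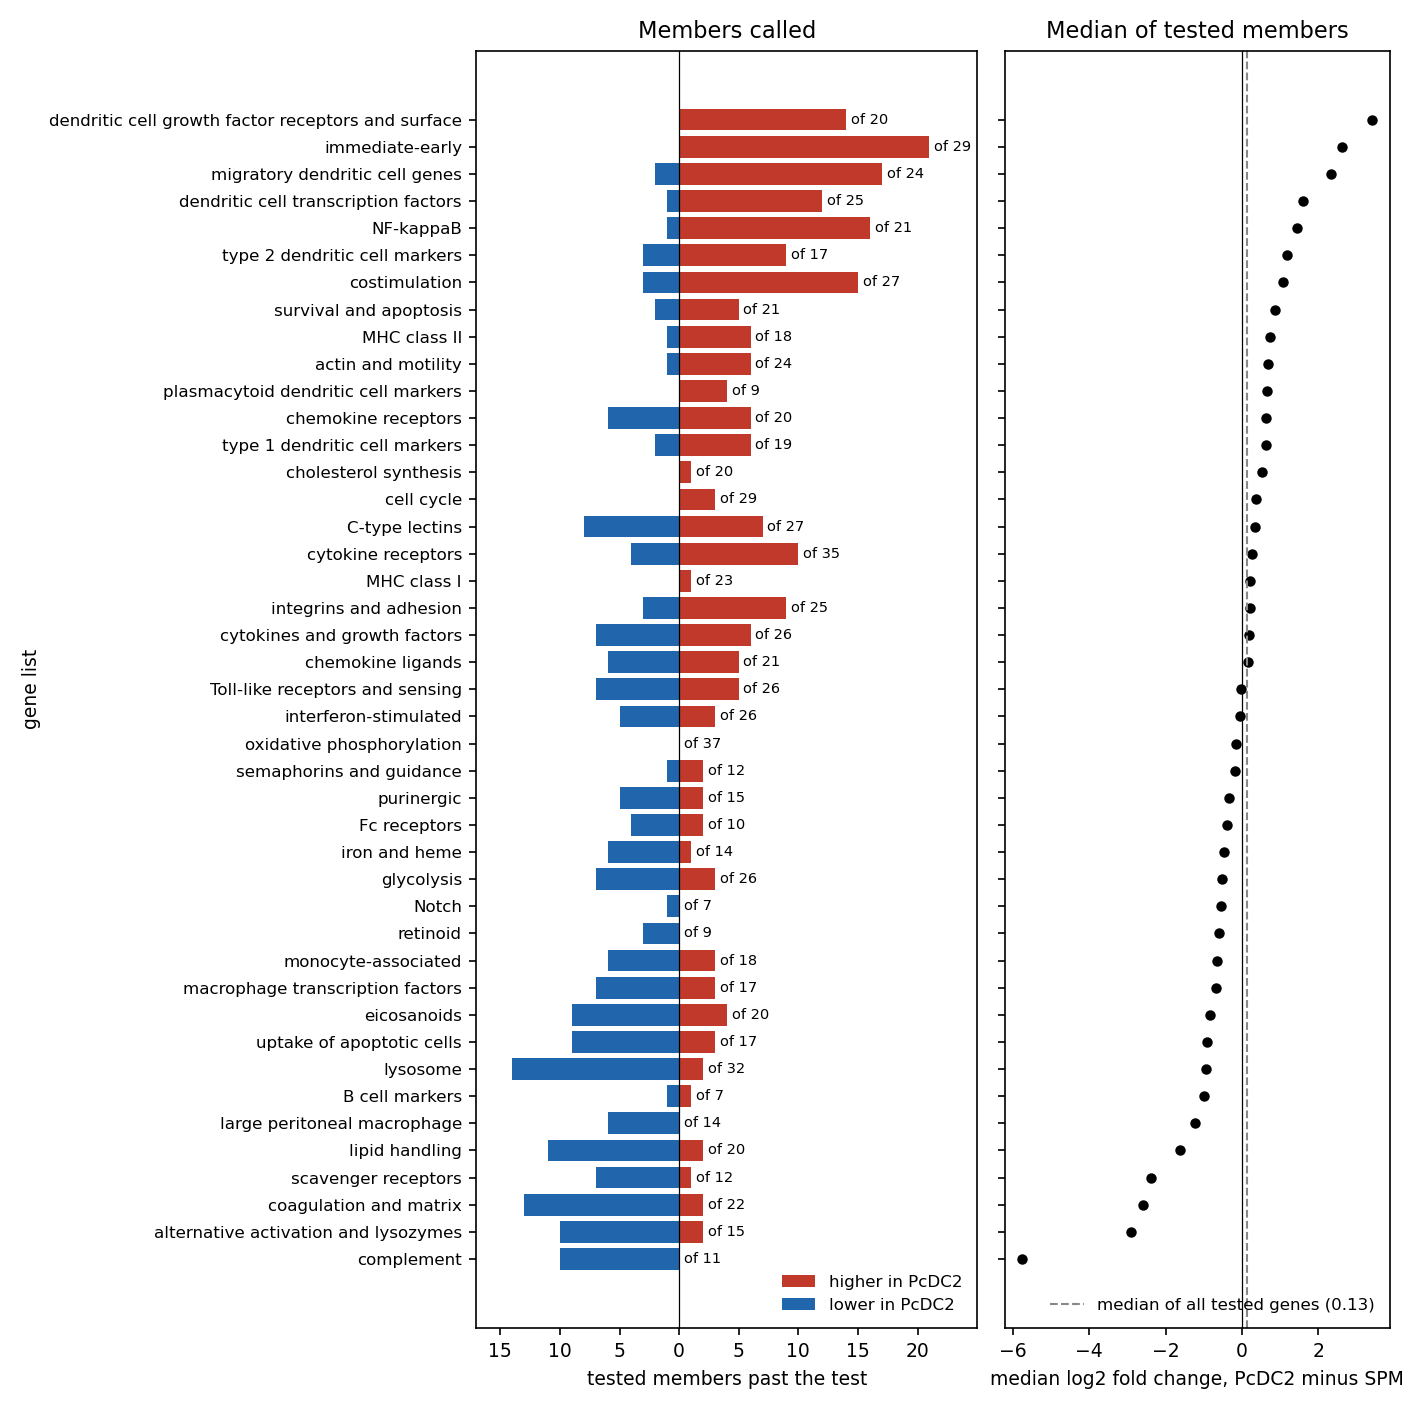
For each list with at least 7 tested members, the number of members higher and lower in PcDC2 at an adjusted p under 0.05 out of those tested (left) and the median log2 fold change over the tested members (right), with a dashed line at the median of all genes, 0.13. Complement has the lowest median, -5.76, and the growth factor receptor and surface list has 14 of 20 members higher and none lower.

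Promoter letters were counted over the 6751 tested genes with a single promoter in the RefSeq table, 250 bases before to 50 after the start in GRCm38.p6, on both strands. Of these genes 702 were higher and 553 lower in PcDC2. The C/EBP letters TTGCNNAA stood in 8.28% of all promoters, 9.4% of those of higher genes and 14.6% of those of lower genes. The Maf letters TGCTGAC stood in 3.45%, 2.56% and 5.42%, in the same order. The PU.1-type letters GAGGAAGT stood in 3.69%, 6.13% and 4.52%. The kappaB letters GGNNTTTCC stood in 6.25%, 5.98% and 3.98%, so their share among higher genes was not above that of all promoters. AP-1 letters, TGANTCA, stood in 4.5%, 6.27% and 7.41%, and the cAMP response element TGACGTCA in 3.53%, 3.42% and 1.27%. Interferon-type letters GAAANNGAA stood in 7.91%, 10.4% and 10.8%, and the ETS-IRF letters GGAANNGAA, which can overlap PU.1-type and interferon-type letters, in 7.6%, 7.69% and 9.95%. The E-box CACCTG stood in 15.8%, 19.7% and 16.1%, and the lysosomal E-box CACGTGAC in 4.67%, 3.56% and 3.62%. Runt letters, TGTGGT, stood in 12.5%, 13.5% and 13.6%, and the X2-type letters TGACGCAA in 1.02%, 0.57% and 0.362%. No test was made on these shares, and a match is not a binding site.

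The difference between PcDC2 and SPM was set against that of P-IV.I from P-IV.II, the dendritic cell and macrophage subsets of the CD11c+ CD115+ gate, which share no library with it. The difference of the differences was tested as an interaction in the same limma fit, and 117 of the 10526 genes (1.11%) passed, 106 negative and 11 positive. Of these, 112 also differed between PcDC2 and SPM. The difference between the P-IV subsets was not tested by itself, and it could lie near 0, as for Lyve1 at 0.01. In 90 of the 112 its estimate had the same sign and was smaller, and in 22 it had the opposite sign. The count was 39 without PcDC2 replicate 2, 44 without PcDC2 replicate 1, 60 without SPM replicate 2 and 61 without SPM replicate 1.

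Named genes among the negative differences include F13a1 and Lyz1. F13a1, given above, was at 196 and 256 FPKM in P-IV.II and 21 and 63.1 in P-IV.I, a difference of -2.59 on the log2 scale, and the interaction was -6.19 ± 0.67 (adjusted p = 0.00749). The P-IV.I libraries thus held this transcript at levels that the PcDC2 libraries did not. The part of P-IV.II cells in these levels was not tested. Lyz1 had an interaction of -5.04 ± 0.50 (adjusted p = 0.00649). Among the positive differences, Cd72, an inhibitory receptor also known from B cells, was at 1.56 and 1.45 FPKM in SPM and 70.8 and 62.5 in PcDC2 and at 3.82 and 2.13 in P-IV.II and 21.1 and 20.9 in P-IV.I, with an interaction of 2.25 ± 0.38 (adjusted p = 0.0415). Pkp3, a desmosomal plaque protein, was at 7.47 and 6.93 FPKM in SPM, 39 and 36.3 in PcDC2, 21 and 22.2 in P-IV.II and 25.7 and 25.5 in P-IV.I, with an interaction of 2.00 ± 0.30 (adjusted p = 0.0271). Flt3 gave no call, at -0.20 ± 0.44 (adjusted p = 0.895).

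**Figure D5:**
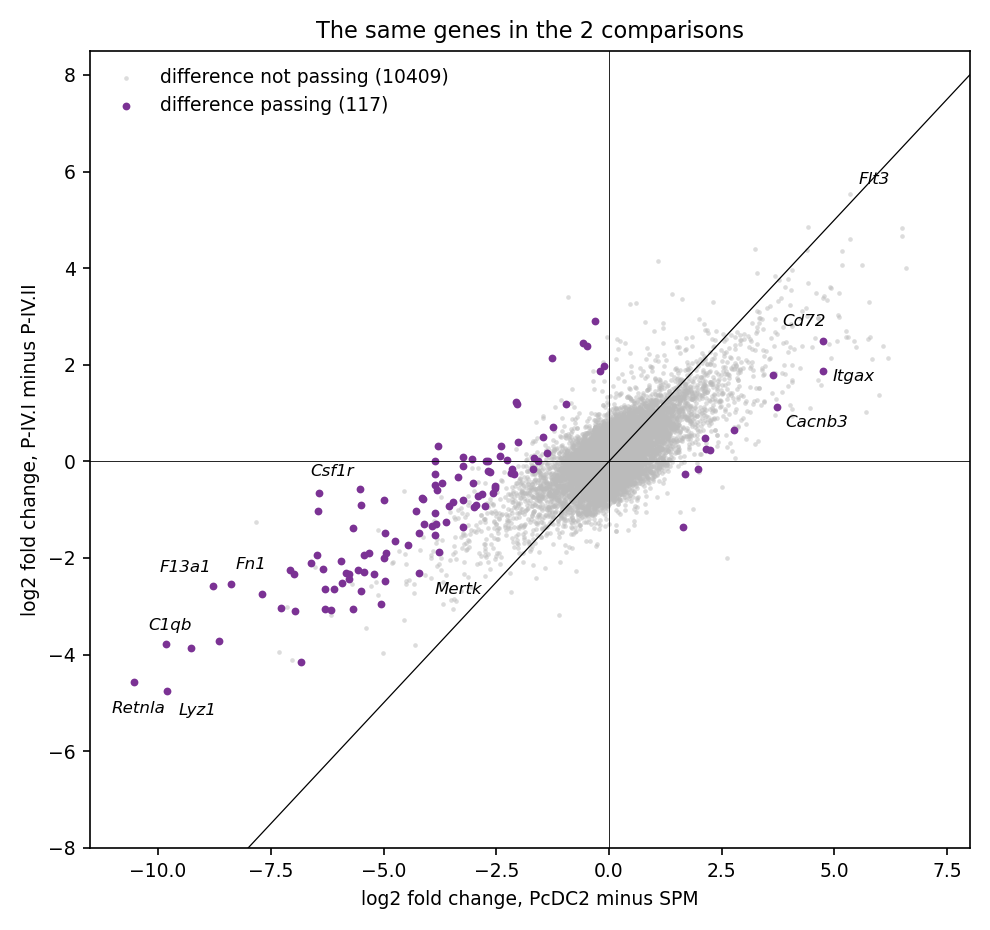
Log2 difference of each of the 10526 tested genes between PcDC2 and SPM (horizontal axis) and between the P-IV subsets, P-IV.I minus P-IV.II (vertical axis), with the 117 genes that passed the interaction test in purple. F13a1, in purple on the left at -8.77 and -2.59, is lower in PcDC2 by more than it is lower in P-IV.I. Other purple genes on the left, such as Lyve1 at -3.86 and 0.01, are not lower in P-IV.I.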

How the data were processed

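Libraries were made from sorted cells with a SMARTer Ultra low input kit and sequenced on a NovaSeq, per the labels' protocols. The authors deposited normalized FPKM values per gene; per the submitters' processing notes they used bcl2fastq 1.8.4, HISAT2 2.1.0, StringTie 1.3.4d, Cufflinks and build mm10. What was done beyond FPKM, the version of Cufflinks and the use of strand are not given in these sources, so overlapping and antisense genes cannot be told apart. Coordinates and promoters are from RefSeq on GRCm38.p6, the same coordinates as mm10, which matched 24462 of the 24532 genes. Whole reads were not recoverable: of 643 low genes 4.51% shared the commonest ratio of the SPM libraries within 1%.

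Values were taken as log2(FPKM + 1), which understates changes of low genes. Genes reaching FPKM 1 in 2 of 9 libraries were fitted with limma 3.58.1 in R 4.3.3 over all 5 groups (lmFit, contrasts.fit, eBayes with a trend). Two-sided p-values were adjusted by Benjamini-Hochberg over the 10526 genes, at a threshold of 0.05. The code was tested on simulated data. The 49 lists and the members were chosen with earlier results of these data known. Named genes are the gate and marker genes, per list up to 6 called members with the widest change and up to 3 not passing with the highest mean FPKM, over all genes the 12 highest and 12 lowest changes with a mean of at least 10 FPKM and the 12 highest levels in each group, and for the interaction the 6 highest and 6 lowest. Predicted genes, pseudogenes and antigen receptor segments were left out, and some genes picked by the rule are not reported here. Alternatives were pseudocounts of 0.1 and 5, no filter and FPKM 5, 3 rescalings, no variance trend, library weights, fits on fewer groups, a test against a log2 change of 1, a replicate block and leaving out each library.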

Additional observations from a re-analysis of the deposited data

Results flagged for a closer look

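The genes below are among those with the highest and lowest differences between PcDC2 minus SPM and P-IV.I minus P-IV.II, among genes that passed the interaction test in limma. Each was picked because the groups' effects under the same kind of contrast differed by that test.

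On the negative side, F13a1 had an interaction of -6.19 (adjusted p = 0.00749), from -8.77 ± 0.48 between PcDC2 and SPM and -2.59 between the P-IV subsets. C1qb had -6.03 (adjusted p = 0.0343), with 1038 and 803 FPKM in P-IV.II and 57.3 and 74.2 in P-IV.I. Retnla had -5.97 (adjusted p = 0.0108), with 13579 and 10979 FPKM in P-IV.II and 463 and 579 in P-IV.I. Fn1 had -5.84 (adjusted p = 0.0168), with 764 and 318 FPKM in P-IV.II and 53.4 and 133 in P-IV.I. Csf1r had -5.77 (adjusted p = 0.00609), with 293 and 327 FPKM in P-IV.II and 157 and 246 in P-IV.I. In these 5 genes the difference between PcDC2 and SPM was negative and the larger of the pair; the difference between the P-IV subsets was also below 0, and its own test is not given here.

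On the positive side, Itgax had 2.89 (adjusted p = 0.0108), with 32 and 22.2 FPKM in P-IV.II and 105 and 94.8 in P-IV.I. Csf1r and Itgax encode the sorted proteins CD115 and CD11c, for which both P-IV subsets were sorted as positive, so they are part of the gate. Cacnb3, a calcium channel subunit, had 2.60 (adjusted p = 0.0415), with 0 and 0.0163 FPKM in SPM, 8.80 and 16.9 in PcDC2, 0 and 0.0229 in P-IV.II and 0.878 and 1.56 in P-IV.I. Cd72 had 2.25 (adjusted p = 0.0415) and Pkp3 2.00 (adjusted p = 0.0271). Tcf19 had 2.14 (adjusted p = 0.03), with 2.33 and 2.24 FPKM in SPM and 10.6 and 13.5 in PcDC2 but 12.7 and 14 in P-IV.II and 11.5 and 12.2 in P-IV.I. Tnfrsf18, which encodes the costimulatory receptor GITR, had 2.13 (adjusted p = 0.0415), with 8.73 and 5.72 FPKM in SPM, 54.3 and 54.2 in PcDC2, 22.2 and 19.2 in P-IV.II and 35.5 and 30.5 in P-IV.I. In each of these 6 genes PcDC2 was higher than SPM.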

How the results depend on the processing

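The count of 2069 genes stayed within 1.5 times under both pseudocounts, both filters, the 3 rescalings, no trend, library weights, the fits on fewer groups and the replicate block. Against a log2 change of 1 (treat) there were 550 calls, 262 higher and 288 lower, and 25 in the interaction. Leaving out each library gave 1089 to 1671 calls, 568 to 930 higher and 521 to 741 lower, and 39 to 61 in the interaction; the lone library of a group was then assumed to vary like the others. Of the 2069 genes, 1075 to 1514 were still called the same way when 1 library was left out, fewest without PcDC2 replicate 2. A block on the replicate number, in a fit without PcDC1, gave 2790 calls, all 2069 among them, and 209 in the interaction. Deviations of same-numbered libraries correlated at 0.037 between SPM and PcDC2, and the P-IV groups were not checked. B2m, for example, was higher in replicate 1 of SPM, P-IV.II and P-IV.I and in replicate 2 of PcDC2. Whether the numbers pair samples is not known. Equal FPKM totals moved the median of all genes to 0.18 and quantile normalization to 0.02. Of 340 named genes 217 were called, 140 of them under every setting, and none reversed. Some named genes that did not pass, among them Zfp36, Ctsz, Fos and H2-Ab1, were called in at least 1 other setting. With 2 libraries per group and unknown depth, small changes may go undetected. The causes were not tested.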

Other observations

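The lowest and highest changes over all genes include members of no list. Gbp2b, an interferon-induced GTPase of the guanylate-binding family, was at 116 and 211 FPKM in SPM and 0.245 and 0 in PcDC2 and fell by 7.14 ± 0.53 on the log2 scale. Its paralogs may share reads with it, so the value is uncertain. Rasgef1b, an exchange factor for RAP proteins induced by inflammatory stimuli, was at 1.91 and 2.34 FPKM in SPM and 230.4 and 391 in PcDC2 and rose by 6.59 ± 1.22 (adjusted p = 0.00683, and 0.0543 without PcDC2 replicate 2). Rgs1, which shortens chemokine receptor signals, was at 26 and 0.370 FPKM in SPM and 209 and 474 in PcDC2 and rose by 5.70 ± 1.37 (adjusted p = 0.0217, and 0.0744 with no filter on low values, 0.0798 without SPM replicate 2, 0.0658 without PcDC2 replicate 1, 0.134 without PcDC2 replicate 2). For Rgs1 the SPM libraries were far apart, as they were for Il1b and Tnf.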
